A study of Homo sapiens with 30 samples.

Results

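Metallothioneins, their zinc-sensing regulator and the main zinc exporter and a zinc importer were followed in BEAS-2B cells, an immortalized line of human bronchial epithelium, over a day of exposure to birch pollen. The 10 genes were taken by name and are the metallothioneins MT1A, MT1E, MT1F, MT1G, MT1M, MT1X and MT2A, the transcription factor MTF1, the exporter SLC30A1 (ZnT1) and the importer SLC39A10 (ZIP10). They were measured by 12 of the 58201 probes for genes on the array, which carry 43972 gene names. Each gene is described by its brightest probe, and MT1E and MT1M had a second one.

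Cells on porous inserts at an air-liquid interface received 10 mg of whole birch pollen in a sedimentation chamber, or went through the same handling as mock controls, labelled air, under a mesh that let air through and held the grains back. RNA was taken after 10 min, 55 min, 2 h 25 min, 6 h 50 min or 24 h from 3 samples of each exposure, which makes 10 groups and 30 one-colour arrays. All groups were the same cell line in the same medium, without genetic change or added metal in the labels, and mock and pollen were compared at the same time. The labels number the samples 1 to 3. The methods describe exposures as repeated independently on separate days, but neither source ties a number to a day or a culture, and p-values measure the spread between these samples.

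Metallothioneins are small cysteine-rich proteins that hold zinc and copper and release them again. When free zinc rises in the cell, MTF1 binds it, moves to metal response elements in promoters and switches on the metallothionein genes and SLC30A1, which pumps zinc out across the plasma membrane. SLC39A10 brings zinc into the cell. Glucocorticoids, heavy metals and oxidative stress are other known inducers of metallothioneins.

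Levels are log2 of the processed signal minus the array's 75th percentile, so 0 is a probe at that percentile and a difference of 1 is a doubling. A gene was called where the limma fit over all 32099 probes tested gave an adjusted p (Benjamini-Hochberg) under 0.05 with at least 1.1-fold change. The 75th percentile lay between 578 and 2111 units of signal and 44.7% to 59.3% of probes were well above background. Of 8 epithelial markers, 8 were well above background on all arrays, against 2 of 6 fibroblast markers (COL1A1 and DCN), 1 of 4 endothelial markers (CDH5), 2 of 4 leukocyte markers measured (PTPRC and CD14) and 0 of 4 markers of ciliated and secretory airway cells, with 3 fibroblast markers well above background on none. The arrays lay on 5 slides. All 10 min arrays shared a slide, all 24 h arrays shared another with replicate 3 of 2 h 25 min, and the 6 h 50 min arrays filled a slide of their own, so that this time and its slide cannot be told apart. Pollen replicate 1 at 55 min was hybridised to another array design without the brightest MT1M probe, so MT1M rests on 29 arrays.

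The probes show how alike the metallothionein genes are. On the hg19 coordinates of the files, the 7 genes lie on chromosome 16 within 1 cluster, from the MT2A probe at chr16:56643332-56643391 to the MT1X probe at chr16:56717962-56718021. The MT1A probe (chr16:56673205-56673808, covering an intron) lies in the coding sequence, where 8 of its 20 codons encode cysteine. These codons are in capitals.
MT1A probe: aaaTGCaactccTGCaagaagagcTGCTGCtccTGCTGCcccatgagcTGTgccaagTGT
Of its bases, 27 in a row also stand in a probe for MT1H, and the MT1E and MT1M probes share 28 bases in a row. These are shown since a probe that shares such a stretch may bind both transcripts.
MT1A and MT1H: CTCCTGCAAGAAGAGCTGCTGCTCCTG
MT1E and MT1M: ATGTGGGAACAGCTCTTCTCCCAGATGT
The MT1F probe shares up to 19 bases in a row with another metallothionein probe, the MT1X probe 15, and the MT1G and MT2A probes 10. Values of single MT1 genes are therefore uncertain as to which copy they measure, and a probe's level says nothing of its level against another probe.

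Promoters of 5 of the 10 genes were matched by symbol in RefSeq (GRCh38.p14), namely MT2A, MT1X, MTF1, SLC30A1 and SLC39A10. The core of the metal response element was searched as TGCACNC or TGCGCNC on both strands in the 250 bases before the annotated start. It was found 7 times before MT2A, 4 times before MT1X, once before SLC30A1, and in none of the windows of MTF1 and SLC39A10. Of 35116 promoter windows, 24.8% held at least 1 match, 0.37% at least 4 and 0.031% at least 7. The stretches with matches are printed on the gene's strand with the matched bases in capitals.
MT2A, chr16:56608334-56608583, plus strand: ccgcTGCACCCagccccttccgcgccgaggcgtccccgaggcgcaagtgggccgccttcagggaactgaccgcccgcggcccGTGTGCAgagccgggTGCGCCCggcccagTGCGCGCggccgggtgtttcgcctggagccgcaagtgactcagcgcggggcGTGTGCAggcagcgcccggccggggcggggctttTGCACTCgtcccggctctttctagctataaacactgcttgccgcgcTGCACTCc
MT1X, chr16:56682220-56682469, plus strand: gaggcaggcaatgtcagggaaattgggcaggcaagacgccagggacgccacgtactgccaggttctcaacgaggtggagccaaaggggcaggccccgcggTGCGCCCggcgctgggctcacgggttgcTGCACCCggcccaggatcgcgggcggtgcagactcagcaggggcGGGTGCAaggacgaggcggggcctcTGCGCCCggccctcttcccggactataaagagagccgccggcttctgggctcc
SLC30A1, chr1:211579162-211579411, minus strand: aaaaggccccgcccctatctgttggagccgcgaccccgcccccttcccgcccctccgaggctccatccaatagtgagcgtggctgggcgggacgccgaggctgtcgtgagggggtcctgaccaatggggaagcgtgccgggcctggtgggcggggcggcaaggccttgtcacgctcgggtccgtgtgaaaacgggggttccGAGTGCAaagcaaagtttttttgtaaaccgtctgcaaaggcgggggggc
A match is a run of letters and does not show that MTF1 binds there.

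**Figure D1:**
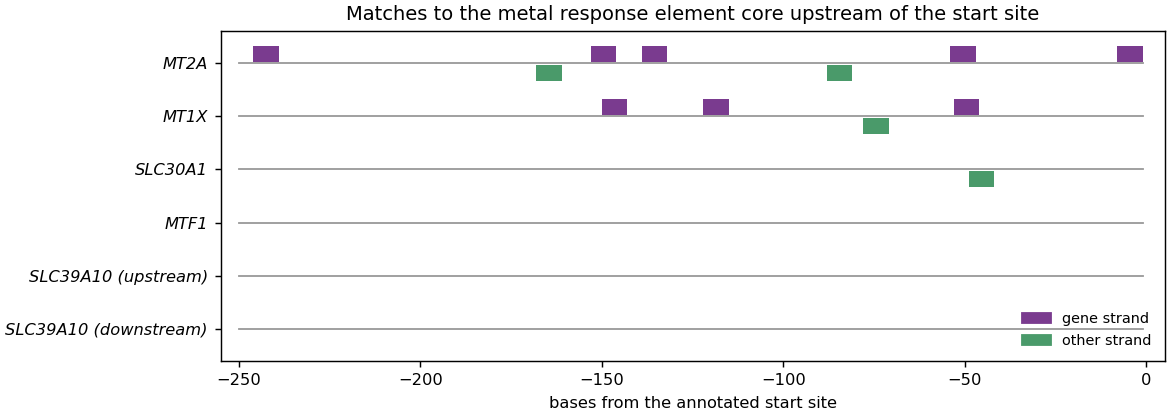
Matches to the metal response element core in the 250 bases before the annotated start site (x axis, bases from the start) of the 5 genes with a promoter sequence. Bars above a line are on the gene's strand and bars below it on the other strand. MT2A held 7 matches, MT1X 4 and SLC30A1 1, and the SLC39A10 windows of both annotated starts and the MTF1 window held none.

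The clearest pattern over time was a lower level of the metallothioneins at 24 h than at 10 min, in mock and in pollen. In mock cells, 7 of the 10 genes were called lower at 24 h than at 10 min and 1 was called higher, where 37.5% of all probes tested were called (20% lower and 17.5% higher). The median difference of the 7 metallothioneins was -1.32 against -0.06 over all probes tested. All 7 had groups that did not overlap, a pattern that 28.8% of all probes showed, and in pollen 5 of 7 had, where 26.8% did. The plot of levels on every array shows this for each gene.

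**Figure D2:**
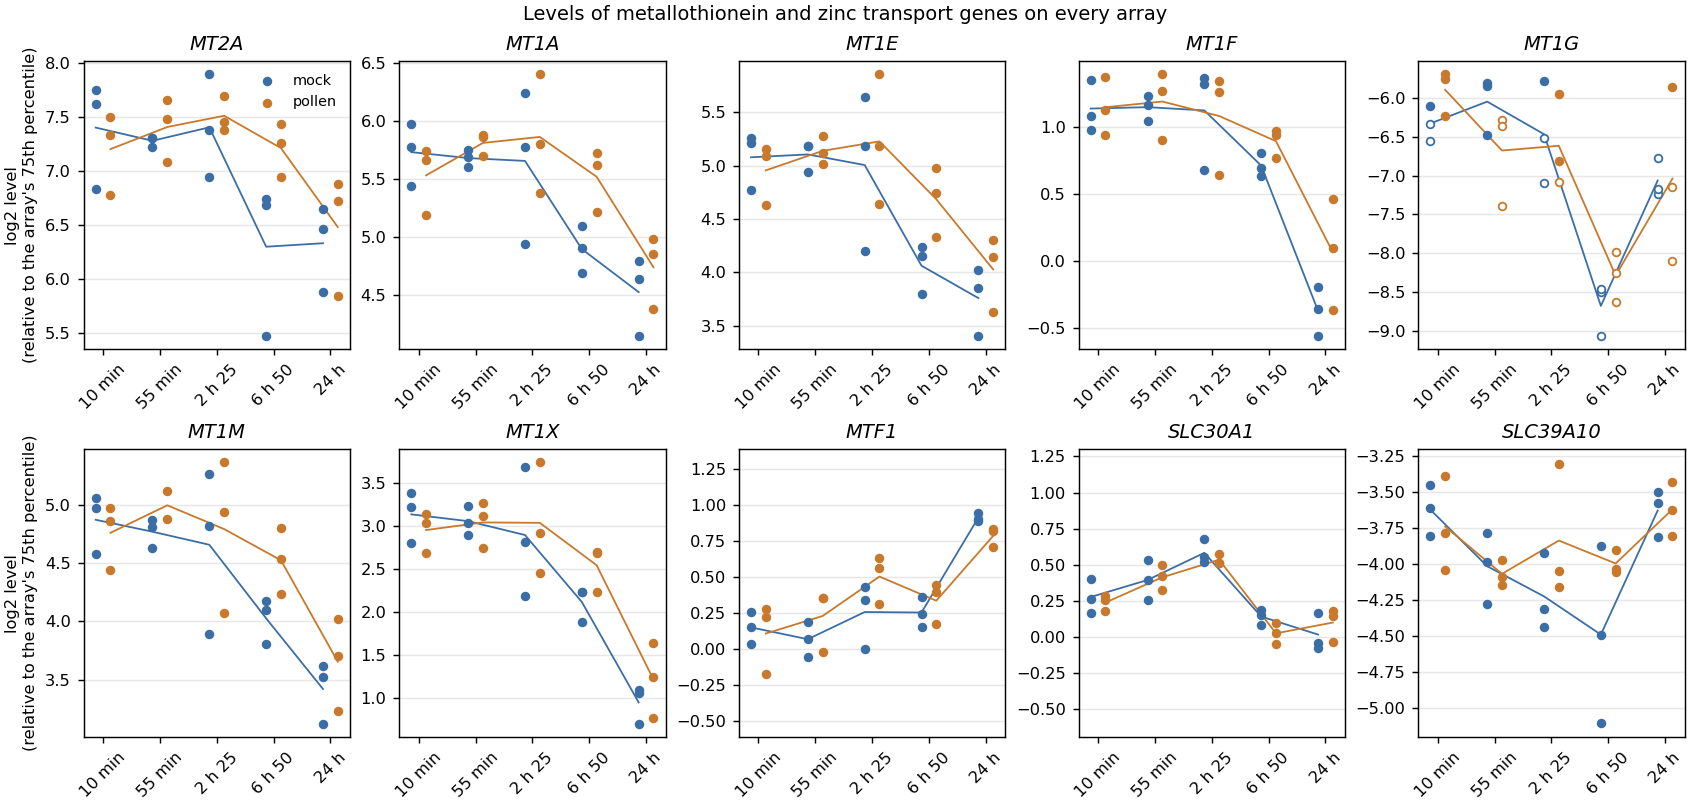
log2 level of the 10 genes (y axis, relative to the array's 75th percentile) at the 5 times (x axis), with mock in blue and pollen in orange. Each point is 1 array, open points were not well above background, and lines join group means. MT1X, MT1F, MT1A, MT1E, MT1M and MT2A were lower on each mock array at 24 h than on any mock array at 10 min, and MTF1 was higher.

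Among the brightest probes of the 10 genes, that of MT1X changed most. MT1X levels were 2.80, 3.22 and 3.39 in mock cells at 10 min and 1.06, 0.70 and 1.09 at 24 h. The groups lay far apart, with a log2 difference of -2.19 ± 0.31 (SE, n = 3 against 3, adjusted p = 1.17e-05), which is 4.56-fold lower. In pollen cells the MT1X levels were 2.69, 3.03 and 3.14 at 10 min and 1.25, 0.76 and 1.64 at 24 h. These did not overlap either, and the difference was -1.74 ± 0.31 (adjusted p = 0.000207).

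MT1F, another MT1 isoform gene, had levels of 0.98, 1.35 and 1.09 in mock cells at 10 min and of -0.36, -0.56 and -0.20 at 24 h. All late arrays were below all early ones (log2 difference -1.51 ± 0.21, adjusted p = 7.36e-06). Its pollen levels were 1.13, 1.38 and 0.95 at 10 min and 0.09, -0.36 and 0.47 at 24 h. The pollen groups also stood apart, by -1.09 ± 0.21 (adjusted p = 0.000382).

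MT2A, the isoform most cells make in the largest amount, had levels of 6.84, 7.62 and 7.75 in mock cells at 10 min and of 6.65, 5.89 and 6.47 at 24 h. The groups did not overlap but came close (log2 difference -1.07 ± 0.33, adjusted p = 0.0136). In pollen cells the MT2A levels were 6.78, 7.50 and 7.34 at 10 min and 6.72, 5.84 and 6.88 at 24 h. Here the groups overlapped, and the difference of -0.72 ± 0.33 was not called (adjusted p = 0.0932).

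MT1A, MT1E and MT1M were also called lower at 24 h in mock cells, by -1.20 ± 0.27, -1.32 ± 0.30 and -1.45 ± 0.30 on the log2 scale, with adjusted p from 0.000751 to 0.00155. In pollen cells they were called lower by -0.79 ± 0.27, -0.93 ± 0.30 and -1.11 ± 0.30, with adjusted p from 0.00769 to 0.0279. The second probe of MT1M gave larger differences of -2.41 and -2.28, and the second probe of MT1E gave -1.38 in mock cells (adjusted p = 0.0548, not called) and -1.87 in pollen cells. MT1G was dim: its probe was well above background on 11 of 30 arrays. In mock cells MT1G was well above background on 1 array at 10 min and on 0 at 24 h, so that no fold is given (adjusted p = 0.183, not called). In pollen cells MT1G was above background on 3 arrays early and on 1 late, so that no size is given for the lower late level, which was called (adjusted p = 0.0403).

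MTF1, the zinc sensor, moved the other way. Its levels were 0.04, 0.26 and 0.15 in mock cells at 10 min and 0.95, 0.90 and 0.88 at 24 h. All late arrays were above all early ones, and the rise of 0.76 ± 0.13 was called (adjusted p = 0.000113), as was that of 0.68 ± 0.13 in pollen cells (adjusted p = 0.000495).

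SLC30A1, the exporter, had levels of 0.17, 0.26 and 0.40 in mock cells at 10 min and of -0.04, -0.08 and 0.16 at 24 h. The groups nearly touched, and the fall of -0.26 ± 0.09 was called (adjusted p = 0.0272), while the difference of -0.14 ± 0.09 in pollen cells was not (adjusted p = 0.243). SLC39A10, the importer, differed by -0.01 (95% interval -0.51 to 0.50) in mock and by 0.12 (-0.38 to 0.62) in pollen and was not called. In pollen cells 6 of the 10 genes were called lower and 1 higher at 24 h, where 35.3% of all probes were called (19.5% lower and 15.8% higher). Without pollen replicate 3 at 10 min 4 genes were called, and the share of all probes called without that array is not given here. With all arrays the median of the metallothioneins in pollen was -1.09 against -0.07 over all probes. In these bulk samples, less metallothionein RNA in each cell and fewer cells that make it cannot be told apart.

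The 2 times were hybridised on different slides, which had no group in common. With the slide as a fixed block, tied through the slides that hold arrays of several times, the 7 metallothioneins kept negative differences, which for those other than the dim MT1G ran from -2.06 to -1.10 in mock and from -1.61 to -0.75 in pollen. Of all 10 genes MT1F alone was then called, at -1.98 ± 0.42 (adjusted p = 0.0106) in mock and -1.55 ± 0.42 (adjusted p = 0.0497) in pollen. The shares of all probes called given above belong to the fit without a slide term, and none is given for the fit with the slide block. The other zinc genes moved as well in that fit. MTF1 differed by 0.47 ± 0.26 in mock and 0.38 ± 0.26 in pollen, SLC30A1 by -0.52 ± 0.18 and -0.40 ± 0.18, and SLC39A10 by 0.74 ± 0.50 and 0.87 ± 0.50, the last outside the intervals given above. A comparison within a slide is possible between 24 h and replicate 3 of 2 h 25 min. All 7 metallothioneins were lower on each of the 3 mock arrays at 24 h than on the mock array of 2 h 25 min beside them, by -1.86 to -1.05 on average. In pollen 6 of 7 were, with MT1G the exception, by -1.70 to -0.98 over the 7 genes. With 1 array at the earlier time this has no test, and the share of all probes with this pattern is not given here. Several of these probes share stretches of sequence, so the 7 are not separate results.

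**Figure D3:**
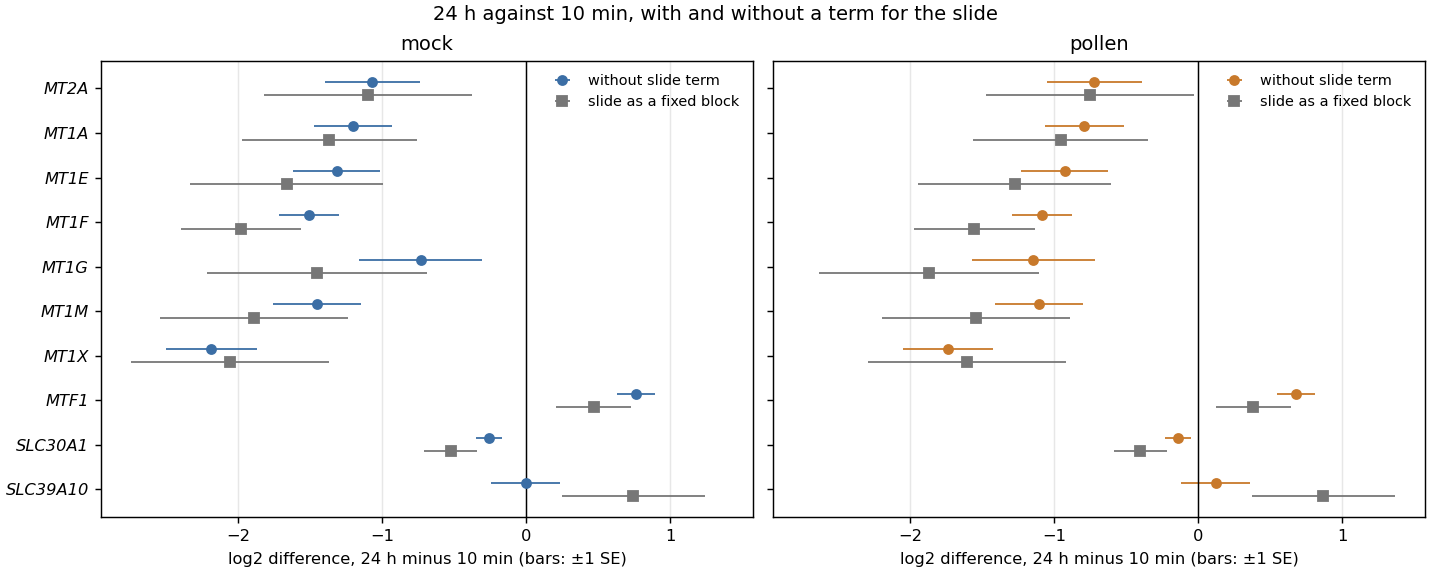
log2 difference between 24 h and 10 min (x axis) for the 10 genes in mock (left) and pollen (right), as fitted without a slide term (coloured circles) and with the slide as a fixed block (grey squares). Bars are 1 SE. All 7 metallothioneins lay below 0 in both fits, and the errors were wider with the slide term, under which MT1F alone was called.

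No change of these genes was called before 2 h 25 min. Between 10 min and 55 min and between 55 min and 2 h 25 min, 0 of the 10 genes were called by limma in mock, where 0.187% and 0.0156% of all probes were called, and 0 in pollen, where 0.841% and 0.202% were. At an unadjusted p under 0.05 there was 1 member in these 4 comparisons, SLC30A1 between 55 min and 2 h 25 min in mock (0.19 ± 0.09 on the log2 scale). The differences of the genes other than MT1G ran from -0.39 to 0.28. The exporter was highest at 2 h 25 min, with levels of 0.52, 0.55 and 0.68 in mock and 0.51, 0.58 and 0.51 in pollen. In pollen its arrays at 55 min were all above those at 10 min, where 10.9% of all probes were, and its arrays at 2 h 25 min were all above those at 55 min, where 4.44% were. These times lay partly on different slides. With the slide as a fixed block the steps of SLC30A1 were 0.01 ± 0.16 and 0.06 ± 0.10 in pollen, and 0.10 ± 0.10 between 55 min and 2 h 25 min in mock.

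At 2 h 25 min MT1A, MT1E, MT1M and MT1X spread more widely than at the earlier times, and they did so together. MT1E levels were 4.20, 5.64 and 5.18 in mock replicates 1 to 3 and 4.64, 5.86 and 5.18 in pollen replicates 1 to 3. Replicate 1 was the lowest and replicate 2 the highest in both exposures. The same order held for MT1A, MT1M and MT1X in both, as the plot of deviations shows.

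**Figure D4:**
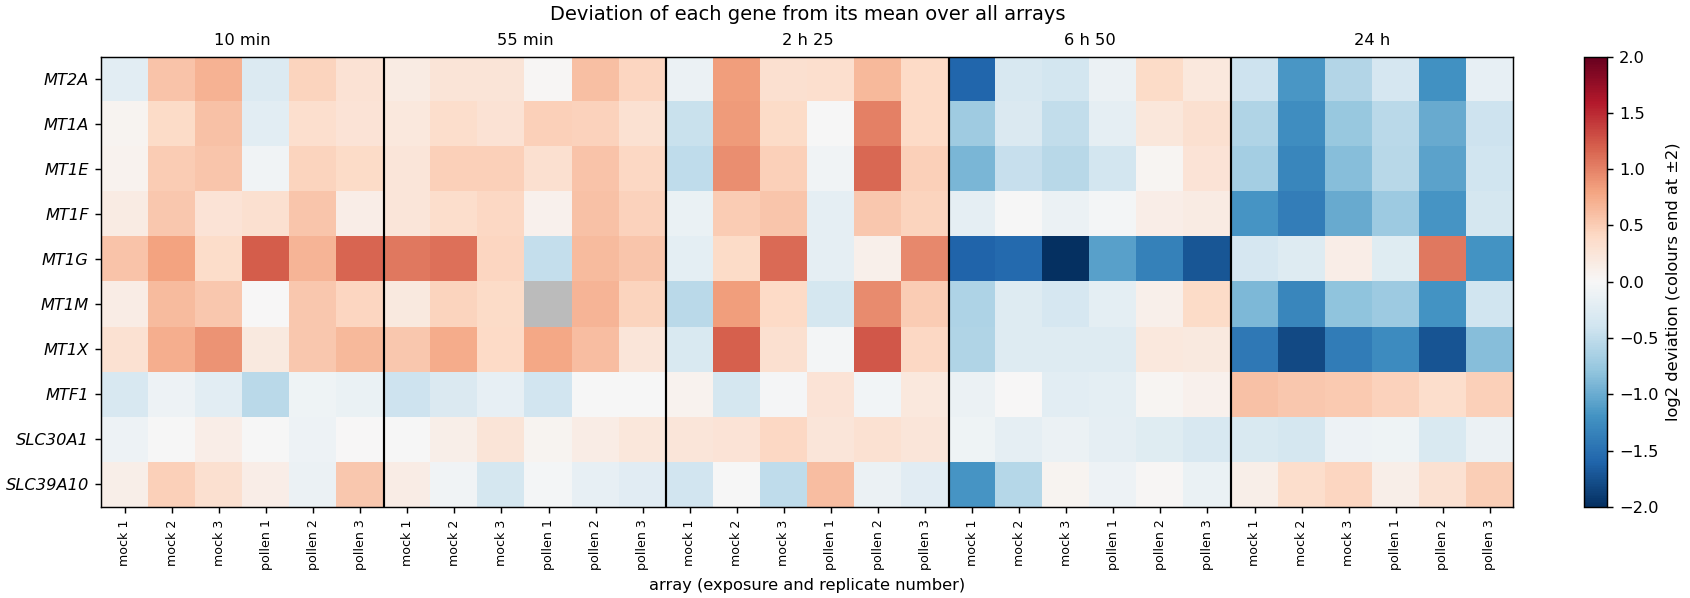
Deviation of each gene (rows) from its own mean over all arrays (log2, colour scale ending at ±2) on the 30 arrays, ordered by time, exposure and replicate number. The grey cell is the array without the MT1M probe. The metallothioneins other than MT1G were below their mean on all 24 h arrays, and at 2 h 25 min replicate 2 had the highest MT1A, MT1E, MT1M and MT1X levels of its exposure and replicate 1 the lowest.

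Between 2 h 25 min and 6 h 50 min, 5 of the 10 genes were called lower in mock, where 32.4% of all probes were called (22.5% lower and 9.9% higher) and the median of all probes was -0.15. This split depended on the scaling, with 3177 probes higher and 7238 lower here against 3690 and 4338 after quantile normalization, and in pollen 3563 and 6384 against 3922 and 4559. The 5 genes called in mock were MT2A (-1.11 ± 0.33, adjusted p = 0.0143), MT1E (-0.94 ± 0.30, adjusted p = 0.0215), MT1A (-0.76 ± 0.27, adjusted p = 0.0374), SLC30A1 (-0.44 ± 0.09, adjusted p = 0.00107) and MT1G (adjusted p = 0.000642). MT1G was well above background on 1 mock array at 2 h 25 min and on 0 at 6 h 50 min, so no fold is given. Mock replicate 1 at 6 h 50 min lay low, and part of its array and of that of mock replicate 2 was dim, including the MT2A spot of replicate 1 and the SLC39A10 spots of both. Without mock replicate 1 of 6 h 50 min 2 of the 10 genes were called. Of the 2 h 25 min mock arrays, leaving out replicate 1 gave 8 calls, replicate 2 gave 2 and replicate 3 gave 3. The shares of all probes called with these arrays left out are not given here. Over all alternatives 4075 to 12237 probes were called in this comparison, so the counts of genes have no matched background. With the dim areas left out MT2A fell by 0.69 on the log2 scale and was not called (adjusted p = 0.105). In pollen cells 2 of the 10 genes were called lower, where 31% of all probes were called (19.9% lower and 11.1% higher). They were SLC30A1 (-0.51 ± 0.09, adjusted p = 0.000306) and MT1G (adjusted p = 0.00533). There MT1G was well above background on 2 arrays at 2 h 25 min and on 0 at 6 h 50 min, so again no fold is given. The genes not called in mock were MT1X (-0.78 ± 0.31, adjusted p = 0.0603), MT1M (-0.63 ± 0.30), MT1F (-0.41 ± 0.21), SLC39A10 (-0.27 ± 0.24) and MTF1 (-0.00 ± 0.13), and in pollen the other 8 lay between -0.54 (MT1E) and -0.16 (SLC39A10). The metallothionein median was -0.78 in mock and -0.34 in pollen. The second probe of MT1E gave -1.34 and -1.44 and that of MT1M -0.24 and -0.07, none of them called.

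Between 6 h 50 min and 24 h, 2 of the 10 genes were called lower and 3 higher in mock, where 40.5% of all probes were called (15.9% lower and 24.7% higher). MT1X fell by 1.17 ± 0.31 (adjusted p = 0.00531) and MT1F by 1.09 ± 0.21 (adjusted p = 0.000332) on the log2 scale, and MTF1 rose by 0.66 ± 0.13 (adjusted p = 0.000558). SLC39A10 rose by 0.86 ± 0.24 (adjusted p = 0.00736), but by 0.24 without the dim areas, where it was not called (adjusted p = 0.516). MT1G was the other gene called higher, with 0 arrays well above background in either group, so no fold is given. MT2A, with mock levels of 5.47, 6.74 and 6.69 at 6 h 50 min, differed by 0.03 ± 0.33 and by -0.38 without the dim areas, and was called in neither. MT1M (-0.61 ± 0.30), MT1A (-0.37 ± 0.27), MT1E (-0.30 ± 0.30) and SLC30A1 (-0.13 ± 0.09) were not called either. The second probe of MT1M was called lower (-1.39 ± 0.36, adjusted p = 0.00441), and that of MT1E gave 0.19 ± 0.56.

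In pollen cells 4 of the 10 genes were called lower between 6 h 50 min and 24 h and 2 higher, where 36.2% of all probes were called (14.5% lower and 21.8% higher). The genes called lower were MT1X (-1.33 ± 0.31), MT1M (-0.87 ± 0.30), MT1F (-0.83 ± 0.21) and MT1A (-0.78 ± 0.27), with adjusted p from 0.00234 to 0.0302. MT2A at -0.73 ± 0.33 and MT1E at -0.66 ± 0.30 were not called (adjusted p = 0.0869 and 0.0939), although all 3 late arrays were below all 3 earlier ones for both. In all, 6 of the 7 metallothioneins had such groups, a pattern that 19.8% of all probes showed. MTF1 rose by 0.45 ± 0.13 (adjusted p = 0.0119), and MT1G was the other gene called higher, above background on 1 array at 24 h and on 0 before. SLC39A10 (0.38 ± 0.24) and SLC30A1 (0.07 ± 0.09) were not called, and the second probes gave -1.56 ± 0.36 for MT1M (adjusted p = 0.00219) and -0.52 ± 0.56 for MT1E. Without pollen replicate 2 at 24 h, the array lowest in MT2A, MT1A, MT1E, MT1F, MT1M and MT1X in that group, 3 genes were called, and likewise 3 without pollen replicate 2 or replicate 3 at 6 h 50 min. The shares of all probes called without these arrays are not given here.

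The comparison of pollen with mock addresses what whole pollen grains do to these genes beyond handling in the chamber. No gene of the 10 was called by limma at any time in the main fit, which has no term for the replicate number. The share of all probes called was 0% at 10 min, 0.00312% at 55 min, 0.0343% at 2 h 25 min, 0.0436% at 6 h 50 min and 0.00312% at 24 h. With the replicate number as a block 4 genes were called at 6 h 50 min. Over all probes compared, same-numbered arrays did not all deviate together at that time. For MT1A, MT1E, MT1F, MT1M, MT1X and MT2A, however, replicate 1 was the lowest in both exposures. The share of all probes called with that block is not given here. Without that block, at an unadjusted p under 0.05 there were 0 genes at 10 min, 55 min and 2 h 25 min, 2 at 6 h 50 min (MT2A and MT1A) and 1 at 24 h (MT1F), all higher in pollen. The share of all probes under this limit is not given, so this and the other counts at an unadjusted p have no background beside them.

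**Figure D5:**
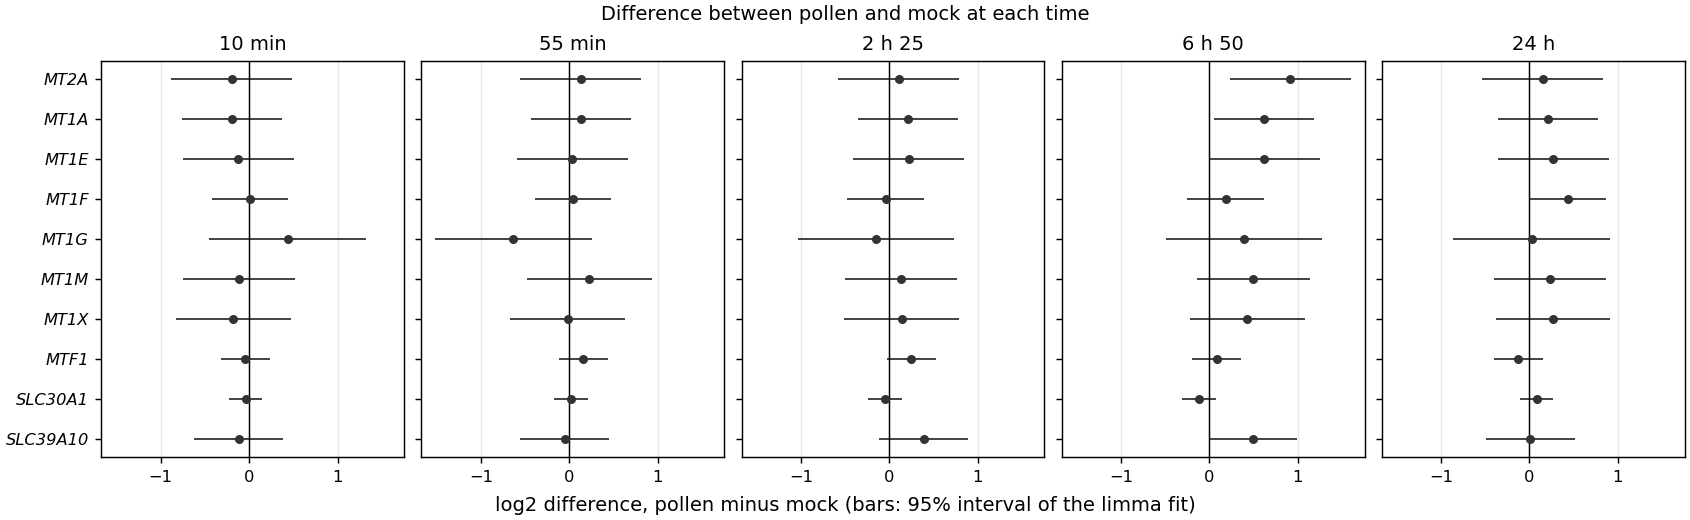
log2 difference between pollen and mock (x axis) for the 10 genes (y axis) at each of the 5 times. Points are the fitted differences and bars their 95% intervals. At 6 h 50 min all 7 metallothioneins lay above 0, and none of the differences was called after adjustment in the fit shown, which has no replicate block.

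At 6 h 50 min the 7 metallothioneins were all on the side of higher levels in pollen, with a median of 0.50 against 0.00 over all probes tested. For 5 of the 7 each pollen array was above each mock array, a pattern that 6.52% of all probes tested showed in this direction. All 7 stayed above 0 without any one array of the time, with medians from 0.48 to 0.64. One of them, MT1G, was not well above background on any array of the time. Over all alternatives 5 to 7 of the 7 lay above 0. MT2A levels were 5.47, 6.74 and 6.69 in mock and 6.94, 7.44 and 7.26 in pollen. Mock replicate 1 lay well below the other 5 arrays, and the difference was 0.91 ± 0.33 (95% interval 0.23 to 1.60, adjusted p = 0.396). The low value stood in a dim area of its array, and without it the difference was 0.50 (adjusted p = 0.958).

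MT1A levels were 4.69, 5.10 and 4.90 in mock and 5.21, 5.62 and 5.72 in pollen at 6 h 50 min. The groups did not overlap, and the difference was 0.62 ± 0.27 (95% interval 0.06 to 1.19, adjusted p = 0.602). MT1E levels were 3.79, 4.24 and 4.16 in mock and 4.33, 4.74 and 4.98 in pollen. They stood apart by little, and the difference of 0.62 ± 0.30 had an interval of -0.01 to 1.25 (adjusted p = 0.678).

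MT1M levels were 3.81, 4.17 and 4.10 in mock and 4.24, 4.53 and 4.80 in pollen at 6 h 50 min, again without overlap (0.50 ± 0.30, adjusted p = 0.834). MT1X levels were 1.89, 2.23 and 2.24 in mock, and 2.24, 2.70 and 2.69 in pollen. The lowest pollen array only just passed the highest mock array (0.43 ± 0.31, adjusted p = 0.904). MT1F differed by 0.18 ± 0.21 with overlapping groups, and MT1G was not well above background on any array of the time. The second probes of MT1E and MT1M gave 0.34 and 0.29 with overlapping groups.

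Of the other zinc genes at 6 h 50 min, MTF1 and SLC39A10 were on the side of pollen and SLC30A1 on that of mock. SLC30A1, which MTF1 also drives, had levels of 0.18, 0.08 and 0.15 in mock and 0.10, 0.03 and -0.05 in pollen. The groups overlapped with pollen slightly lower (-0.12 ± 0.09, 95% interval -0.30 to 0.07, adjusted p = 0.919). MTF1 differed by 0.08 ± 0.13. SLC39A10 differed by 0.49 ± 0.24 (adjusted p = 0.684), but by -0.12 once its 2 mock values in dim areas were left out.

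At 24 h the 7 metallothioneins had a median difference of 0.23 against -0.00 over all probes, and all were above 0, of which MT1G (0.02) was above background on 1 of 6 arrays. Single arrays moved this: the median was 0.47 without pollen replicate 2, with MT1G then below 0, 0.08 with 5 of 7 above 0 without mock replicate 2, and 0.09 with 6 of 7 without pollen replicate 3. No metallothionein had groups that did not overlap (0 of 7), where 5.33% of all probes did. MT1F had the largest difference, 0.44 ± 0.21 (95% interval 0.01 to 0.87, adjusted p = 1). Its pollen level was higher in 3 of 3 pairs of the same replicate number, as were those of MT1A, MT1E, MT1M and MT1X. The share of all probes higher in 3 of 3 pairs is not given here. With the replicate number as a block 0 genes were called at 24 h, and 4 were at an unadjusted p under 0.05 (MT1F, MT1E, MT1M and MT1X). MTF1 was lower on each pollen array at 24 h than on each mock array (0.82, 0.71 and 0.83 against 0.95, 0.90 and 0.88), where 3.47% of all probes were, and its difference was -0.13 ± 0.13. SLC30A1 differed by 0.08 ± 0.09 and SLC39A10 by 0.01 ± 0.24. The second probes gave -0.36 ± 0.56 for MT1E and 0.12 ± 0.36 for MT1M.

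At the earlier times the direction of the median difference between pollen and mock, in the fit without pairs, changed when single arrays were left out. At 2 h 25 min replicate 1 was low and replicate 2 high in both exposures for MT1A, MT1E, MT1M and MT1X. Leaving out 1 array of such a pair also unbalances the groups. At 10 min 2 of the 7 metallothioneins were higher in pollen and the median was -0.12, at 55 min 5 were (median 0.04, with MT1M on 2 pollen arrays above all mock arrays, where 5.99% of all probes had groups of this kind), and at 2 h 25 min 5 were (median 0.13). Without mock replicate 1 of 2 h 25 min 0 of the 7 were higher (median -0.21), and without pollen replicate 2 of that time 1 was (median -0.09), while leaving out mock replicate 2 or pollen replicate 1 gave medians of 0.44 and 0.43. Leaving out each array in turn moved the median from -0.28 to 0.02 at 10 min, the one value above 0 being that without pollen replicate 1, and from -0.04 to 0.10 at 55 min, with values below 0 without mock replicate 1 or pollen replicate 2. Same-numbered arrays deviated together at 10 min and 2 h 25 min, and by these pairs MT1A, MT1E, MT1M, MT1X and MT2A were lower in pollen in 3 of 3 pairs at 10 min, and MT1A, MT1E, MT1M and MT1X higher in 3 of 3 at 2 h 25 min. The share of all probes with 3 of 3 pairs on the same side is not given here, and probes that share stretches are not separate results. For MT2A the difference was -0.20 at 10 min and 0.11 at 2 h 25 min, with an SE of 0.33 without and 0.17 with the replicate block. With the block 0 genes were called at either time, and at an unadjusted p under 0.05 there were 0 at 10 min and 2 at 2 h 25 min, MT1E (0.22 ± 0.10) and MTF1 (0.25 ± 0.08). The 95% interval of MT2A at 55 min was -0.56 to 0.81. MTF1, SLC30A1 and SLC39A10 differed by -0.12 to 0.39 over these times, and the second probes of MT1E and MT1M by -0.26 to 0.44. Whether pollen acted differently at 6 h 50 min than at 2 h 25 min was tested as an interaction, and 0 of the 10 genes were called, where 0.00312% of all probes were. The largest was MT2A (0.81 ± 0.47, adjusted p = 0.958). In the other 3 interactions between neighbouring times 0 genes were called too, where 0% of all probes were, and 0 had an unadjusted p under 0.05. These results are from the fit without the replicate block. With it 0 genes were called either, but MT2A (0.81 ± 0.25), MT1A, MT1E and MT1M had an unadjusted p under 0.05 in the first interaction. They also did at 24 h against 6 h 50 min, with the opposite sign (MT2A -0.76 ± 0.25), and MT1A did at 55 min against 10 min (0.33 ± 0.14). The shares of all probes under this limit are not given.

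The rest of the metallothionein family was described from a list of 12 further genes and pseudogenes, of which 7 were tested, among them TESMIN, which is metallothionein-like. In mock cells 4 of the 7 were called lower and 0 higher at 24 h than at 10 min, with a median of -1.33, where 20% of all probes were called lower. They were MT1L (-1.41 ± 0.32), MT1B (-1.35 ± 0.31), MT1H (-1.33 ± 0.31) and the pseudogene MT1DP, whose probe was well above background on 20 of 30 arrays. In pollen cells 4 of the 7 were called lower as well, and between 2 h 25 min and 6 h 50 min 6 were called lower in mock and 2 in pollen, where 22.5% and 19.9% of all probes were. At 6 h 50 min MT1B ranged from 3.65 to 4.11 in mock and from 4.38 to 5.01 in pollen, MT1H from 3.70 to 4.17 and from 4.21 to 4.86, and MT1L from 4.02 to 4.47 and from 4.66 to 5.25. These 3 did not overlap, a pattern that 6.52% of all probes showed in this direction. The groups of the other 4 overlapped, with MT1DP and TESMIN higher on average in pollen and MT1IP (-6.52 in mock and -7.45 in pollen) and MT3 (-0.17 and -0.26) lower, and 0 of the 7 were called. MT1B, MT1H and MT1L probes share 17, 27 and 19 bases in a row with probes of the genes above, so they are not separate evidence.

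The other zinc transporters and copper genes are to be read against the 37.5% of all probes called between 10 min and 24 h in mock (17.5% higher and 20% lower). The differences of all the gene lists come from the fit without a slide term. The arrays of 10 min and 24 h lay on different slides, so time and slide are not separated in these list differences. Of 7 exporters of the SLC30 family tested, 1 was called higher (SLC30A5, 0.58 ± 0.11) and 1 lower (SLC30A2, -1.11 ± 0.27) at 24 h than at 10 min in mock, with a median of -0.17. Of 12 importers of the SLC39 family 4 were called higher and 2 lower (median 0.14), led by SLC39A3 (0.85 ± 0.25) and SLC39A1 (0.58 ± 0.09), while SLC39A11 (-0.50 ± 0.11) and SLC39A8 (-0.43 ± 0.11) were lower. Of 8 genes of copper handling 4 were called higher and 0 lower (median 0.28), among them the copper transporter gene SLC31A2 (0.81 ± 0.12) and the copper chaperone gene COX17 (0.66 ± 0.13).

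Lists of genes that share inducers with the metallothioneins stand against the same shares and have the same limit from the slides. Of 9 heavy metal stress genes 3 were called higher and 1 lower (median 0.33): the heat shock genes HSPA1B (1.47 ± 0.21) and HSPA1A (1.21 ± 0.25) rose, as did TXNRD1 (0.33 ± 0.11), and GCLC, which makes the first enzyme of glutathione synthesis, fell by 0.58 ± 0.12. HSPA1A and HSPA1B are near-identical copies whose probes may not tell them apart. Of 8 glucocorticoid-induced genes 3 were called lower and 1 higher (median -0.20), with SGK1 (-1.15 ± 0.15), TSC22D3 (-1.09 ± 0.15) and FKBP5 (-0.71 ± 0.09) lower. ZBTB16 was the gene called higher (0.38 ± 0.14). Between 2 h 25 min and 6 h 50 min, when the metallothionein medians were below 0, 5 of the 8 were called lower in mock (median -0.49) and 7 in pollen (median -0.71), where 22.5% and 19.9% of all probes were called lower and their medians were -0.15 and -0.11. The list was led by SGK1 at -0.95 ± 0.15 and -1.25 ± 0.15. Between 6 h 50 min and 24 h in mock, DUSP1 (1.04 ± 0.34) and ZBTB16 (0.94 ± 0.14) were called higher, where 24.7% of all probes were. TSC22D3 (-0.56 ± 0.15) and FKBP5 (-0.44 ± 0.09) were called lower, where 15.9% were. In pollen the same genes were called in the same directions, where 21.8% and 14.5% of all probes were. The part of these genes in the metallothionein levels was not tested. At 55 min against 10 min 1 of the same 8 genes was called higher in mock, PER1 (0.72 ± 0.13), where 0.187% of all probes were called. In pollen 3 were called higher, SGK1 (0.83 ± 0.15), PER1 (0.70 ± 0.13) and KLF9 (0.52 ± 0.12), where 0.841% of all probes were called. None of the 8 was called lower in either, and these times lay partly on different slides. In all 6 lists 0 genes were called between pollen and mock at 6 h 50 min and at 24 h.

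Over the 10 group means, the genes most like MT2A among 17980 with a probe well above background on all arrays were LOC102724532 (Pearson r = 0.984), MT1L (0.976), MT1B (0.975), MT1H (0.971) and TTC7A (0.966). With normexp background correction and quantile normalization together, the first 5 were instead ULK4, DSTN, IFT172, HES6 and CXorf40A, with r from 0.968 to 0.977. The gene most like SLC30A1 was PRSS3 under both (0.967 and 0.955). It was followed in the first ranking by lnc-PKNOX1-2 (0.952), LINC01806 (0.950) and 2 transcripts without a gene symbol, and LINC01806 was also among the first 5 under the other processing. These correlations are across groups that share slides, and they are given as a description.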

How the data were processed

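RNA of 30 samples was labelled with Cy3 and hybridised to Agilent one-colour arrays. The authors deposited scanner output of Agilent Feature Extraction 11.0.1.1, per the file headers with probe coordinates on hg19, and a table of processed log2 values. The processed signal intensity, already background-corrected per the file headers, was averaged over unflagged spots of a probe, scaled to the 75th percentile of the 33873 probes common to the array designs, and put on the log2 scale. The depth of an array is its signal, so precision rests on 3 arrays a group. Of the deposited log2 table, 23 of 29 comparable columns matched their own array best; the 6 columns at 24 h matched another array of the same group best, and the table was used as an alternative only.

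A probe entered the test if Feature Extraction had it well above background throughout 1 or more groups (32099 probes did). The test was made with limma 3.58.1 in R 4.3.3 on 10 group means, Benjamini-Hochberg adjustment over all of them and a limit of 1.1-fold, which was applied after the test. The script was tested on simulated data. The 10 genes, the gene lists, markers and tests were chosen with earlier results of these data known. All 10 genes enter each comparison by the probe with the highest mean, with the second probe where there is one; where few were called, the others are given as a range. Of the other lists at most the 5 largest called changes are named, and the 5 genes most like MT2A and most like SLC30A1. Gene names are those of the array files. Same-numbered mock and pollen arrays deviated together (r over 0.1 in each pair over 19412 probes) at 10 min, 2 h 25 min and 24 h, with r from 0.3 to 0.749, but not at 55 min and 6 h 50 min. Alternatives covered scaling, background correction, filters, array weights, replicate and slide blocks, dim areas, second probes and leaving out each array. Spots with a neighbourhood of 15 spots a side under -0.3 (log2) against the other arrays were taken as dim areas.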

Additional observations from a re-analysis of the deposited data

How the results depend on the processing

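Between pollen and mock, 0 of the 10 genes were called under any alternative at 10 min, 55 min, 2 h 25 min and 24 h, also at 55 min and 2 h 25 min among the arrays of a single shared slide (2 a group), an alternative chosen after seeing the data. At 6 h 50 min, a replicate block gave 4 calls in place of 0: MT1E (adjusted p = 0.0238), MT1A (0.0311), MT1M (0.0386) and MT2A (0.0484). The share of all probes called with that block is not given here, so these 4 calls have no background beside them. Same-numbered arrays did not all deviate together at that time (r = 0.03, 0.23 and -0.03 for the 3 pairs) or at 55 min (0.28, -0.06 and 0.40). These correlations are over 19412 probes. For MT1E, MT1A, MT1M and MT2A replicate 1 was the lowest in both exposures at 6 h 50 min. By the correlations 55 min and 6 h 50 min were not treated as paired, but such values do not show that the samples were unpaired. The methods describe mock cells in each run, but no source used here says that a number marks a run. At 6 h 50 min all 7 metallothioneins were higher in pollen in 3 of 3 pairs. For the 5 whose groups did not overlap, any pairing would give this. The replicate block changed no other call between pollen and mock. Over all alternatives the median of the metallothioneins at 6 h 50 min lay between 0.31 and 0.64, with 5 to 7 of the 7 above 0.

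For 24 h against 10 min, the metallothionein medians lay between -1.67 and -1.14 in mock and between -1.54 and -0.87 in pollen. Of the main 8 and 7 calls, slide as a fixed block left 1 in mock and 1 in pollen, and in pollen the slide as a random block left 4 and each array's own 75th percentile 3. For 6 h 50 min against 2 h 25 min (5 calls in mock, 2 in pollen), own percentiles gave 1 in mock and 1 in pollen, the deposited log2 values 2 and 0, only the arrays compared 2 in mock, slide as a random block 2 in mock, and normexp with quantile normalization and only probes well above background on all arrays 1 each in pollen. For 24 h against 6 h 50 min (5 and 6), own percentiles gave 3 and 2, slide as a random block 3 and 2, and the deposited log2 values 2 in pollen. Leaving out each array in turn gave 2 to 8 calls for mock 6 h 50 min against 2 h 25 min, 3 to 6 for pollen 24 h against 6 h 50 min, 4 to 6 for pollen 24 h against 10 min and 6 to 8 for mock. The counts over all probes that follow are ranges over all alternatives and are not matched to these single settings. Over all probes, the count called ranged from 0 to 518 for pollen against mock at 6 h 50 min (14 as reported), from 1767 to 15286 for mock and 937 to 12009 for pollen at 24 h against 10 min (12038 and 11342), from 4075 to 12237 for mock and 3541 to 12887 for pollen at 6 h 50 min against 2 h 25 min (10415 and 9947), and from 6713 to 15930 and 5308 to 13438 at 24 h against 6 h 50 min (13012 and 11622). With the deposited log2 values, 3205 probes were higher and 4271 lower in mock, and 2567 and 2823 in pollen, in the last comparison (7917 and 5095, and 6982 and 4640, as reported). Own percentiles moved the median of all probes for mock 6 h 50 min against 2 h 25 min from -0.15 to -0.03. The cause of these differences was not tested.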
